A study of Mus musculus with 12 samples.

Results

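NF-kB is a family of transcription factors that T cells switch on when the antigen receptor and its co-receptor CD28 are engaged. The 10 genes described here are its 5 subunits (Rel, Rela, Relb, Nfkb1 and Nfkb2) and 5 genes that restrain or otherwise regulate it (Nfkbia, Nfkbib, Nfkbie, Nfkbiz and Tnfaip3). They were chosen by gene symbol and not by a measured value, although earlier results of these data were known. Of the 15125 loci in the data, 8 carried the symbol of a member, and 2 more members were found inside loci named for a neighbouring gene, as described below. In resting cells the inhibitors of the IkB class hold the subunits in the cytoplasm. A signal marks the inhibitor with ubiquitin, the proteasome degrades it, and the freed dimer enters the nucleus and switches on its targets, among them genes of the family itself. The proteasome also trims the precursors p105 (from Nfkb1) and p100 (from Nfkb2) to the mature subunits p50 and p52. RNA levels report on the genes and not on these protein steps.

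RNA was measured in mouse splenic CD4 T cells, 3 libraries in each of 4 groups, in a series concerned with a faulty proteasome in T cells. The groups were KIKO activated, KI activated, KIKO naive and KI naive. Activated cells had spent 16 h with beads that engage CD3 and CD28, and naive cells had not. The genotypes are named only as KI and KIKO, the sources used here do not name the altered gene, and KIKO is set against KI, not against a wild type. The titles of the KIKO activated libraries say T cells without naming CD4. No age, sex or strain is stated, and no label says that replicates are separate mice, so every p measures the spread between samples, which may be technical.

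Levels are in FPKM, a fragment count adjusted for transcript length and for the size of the library, and the depth behind a value is unknown. A value of 0 means that a library does not list the gene. Differences are of log2(FPKM + 1), which understates changes of low genes, with their standard error, and each adjusted p is from a two-sided test in limma, adjusted by Benjamini-Hochberg over 9743 loci, n = 3 per group. Values of Nfkbie, Nfkbiz and the rest of their loci are from a separate fit of the same kind, with those loci split. The libraries listed 9771 to 11102 loci, and KIKO naive 2 stood apart with the fewest. CD4 T cell markers were listed in all 12 libraries (6 of 8 marker genes), with summed levels of 477 to 704 FPKM in KIKO activated against 1015 to 1209 in KI activated libraries, and 798 to 945 in KIKO naive against 1082 to 1277 in KI naive libraries. Myeloid markers (up to 9 of 10 listed) summed to 207 FPKM in KIKO activated 2 and 316 in KIKO naive 2, while the other 10 libraries lay between 52.5 and 150. Among B cell markers (up to 6 of 10 listed), Ighm made up nearly all of the sum, at 32.1 to 53.9 FPKM in KIKO activated against 102 to 113 in KI activated libraries. H2-Eb1 went the other way, at 3.03, 4.50 and 1.17 FPKM in KIKO activated against 0.00, 0.838 and 0.781 in KI activated libraries. Regulatory T cell markers summed to 170 to 233 FPKM in KIKO activated against 385 to 407 in KI activated libraries, and to 18.2 to 22.5 in KIKO naive against 48.9 to 55.2 in KI naive libraries. These markers include genes that rose on stimulation, so the activated sums do not measure regulatory T cells alone. Tnfrsf18 averaged 128 FPKM in KIKO activated and 193 in KI activated cells, against 14.2 in KIKO naive and 28.9 in KI naive cells. Of the markers tested, 6 of 6 rose in each genotype, where 25.1% of all loci rose in KIKO and 32.2% in KI cells. CD8 T cell markers summed to 12.6 to 16.1 FPKM in KIKO naive against 6.51 to 8.12 in KI naive libraries. When activated, they summed to 8.67 to 10.3 in KIKO against 11.1 to 12.9 in KI libraries. NK markers summed to 3.09 to 13.1 FPKM in KIKO activated against 1.18 to 2.22 in KI activated libraries, and overlapped between genotypes in naive libraries. In bulk RNA, fewer cells of a type and less RNA per cell cannot be told apart. The part of these cell type differences in the results below was not tested.

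After stimulation the highest levels belonged to Nfkbia, Nfkb1 and Nfkb2. The lowest belonged to Nfkbib, which is listed only as 1 transcript end of 758 bp. Its place in the order may therefore not be that of the whole gene. In KI activated libraries the order by mean FPKM was Nfkbia (151), Nfkb1 (128), Nfkb2 (96.0), Rela (61.4), Relb (49.5), Nfkbie (28.2), Tnfaip3 (24.2), Rel (15.8), Nfkbiz (11.6) and Nfkbib (1.19). Neighbours in that order whose libraries overlapped were Rela with Relb and Nfkbie with Tnfaip3, so these pairs were not separated beyond their spread. In KI naive libraries Nfkbia (78.9) was followed by Rela (48.4) and Nfkb1 (37.3), so Rela, which encodes the strongly activating p65 subunit, stood above Nfkb1 at rest and below Nfkb1 and Nfkb2 after stimulation.

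**Figure D1:**
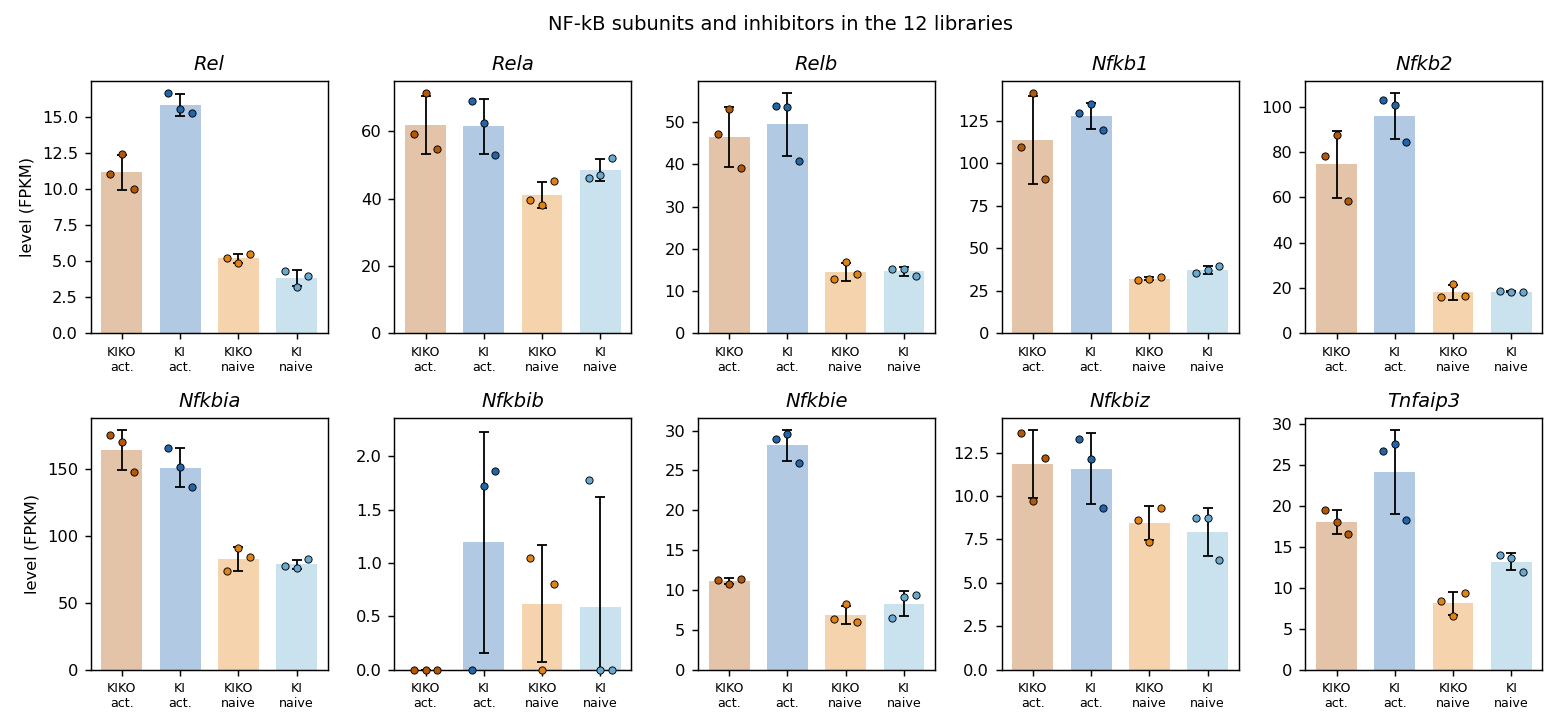
Level of each of the 10 genes (y axis, FPKM, from 0) in the KIKO activated, KI activated, KIKO naive and KI naive groups. Points are libraries, bars are means and whiskers are the SD (n = 3). Rel and Nfkbie were lower in every KIKO activated library than in every KI activated library, and Tnfaip3 was lower in every KIKO naive library than in every KI naive library.

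Stimulation raised the subunit genes in cells of each genotype, and Nfkb2 most. The activated libraries lay above the naive libraries, without overlap, for all 5 subunits in KIKO cells and in KI cells, where 29.3% and 35.6% of all loci did so in that order. Of the 8 members tested under their own name, 7 rose in KIKO and 7 rose in KI cells and none fell. Across all loci 25.1% rose and 22.2% fell in KIKO cells, and 32.2% rose and 29.5% fell in KI cells. The median difference of the members was 1.03 in KIKO and 1.30 in KI cells, where the median of all loci was 0.00 and -0.01. These counts came to 7 and 7 again without KIKO activated 2 and KIKO naive 2, the libraries with the highest myeloid marker sums. In that setting 37.1% of all loci were called in KIKO and 65.9% in KI cells.

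Nfkb2, the gene of p100, stood at 78.1, 87.5 and 58.3 FPKM in KIKO activated libraries, against 15.8, 21.9 and 16.4 in KIKO naive libraries. In KI cells it stood at 103, 101 and 84.4 FPKM when activated, against 18.7, 18.0 and 18.2 when naive. Every activated library was thus well above every naive one, by 1.98 ± 0.15 (log2, adjusted p = 2.46e-06 by limma) in KIKO and 2.32 ± 0.15 (limma adjusted p = 1.93e-07) in KI cells. Nfkb1, the gene of p105, stood at 109, 142 and 90.6 FPKM in KIKO activated against 31.3, 31.7 and 33.1 in KIKO naive libraries, a log2 difference of 1.77 ± 0.13 (limma adjusted p = 1.88e-06). In KI cells it stood at 130, 135 and 120 FPKM when activated and 35.2, 37.1 and 39.6 when naive, a log2 difference of 1.76 ± 0.13 (limma adjusted p = 4.54e-07). The rise of Nfkb1 differed between genotypes by 0.02 ± 0.19 (95% interval -0.39 to 0.43).

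Relb, which pairs with p52 in the alternative pathway, averaged 46.5 ± 7.12 FPKM in KIKO activated and 14.5 ± 2.08 in KIKO naive cells (SD, n = 3 each). In KI cells its means were 49.5 ± 7.43 FPKM when activated and 14.7 ± 1.08 when naive (SD, n = 3 each). The log2 rise was 1.62 ± 0.14 in KIKO (limma adjusted p = 6.51e-06) and 1.68 ± 0.14 in KI cells (limma adjusted p = 1.26e-06). Rela moved least among the subunits. It averaged 61.8 ± 8.58 FPKM in KIKO activated and 41.0 ± 3.77 in KIKO naive cells (SD, n = 3 each), a log2 rise of 0.58 ± 0.12 (limma adjusted p = 0.00232). In KI cells its means were 61.4 ± 8.09 FPKM when activated and 48.4 ± 3.24 when naive (SD, n = 3 each), a log2 rise of 0.33 ± 0.12 (limma adjusted p = 0.0337). The call in KI cells was lost without KI activated 1 (0.24, adjusted p = 0.131), KI activated 2 (0.32, adjusted p = 0.0859), KI naive 1 (0.30, adjusted p = 0.0966) or KI naive 2 (0.31, adjusted p = 0.0901), and under quantile normalization (0.08, adjusted p = 0.572, all by limma).

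**Figure D2:**
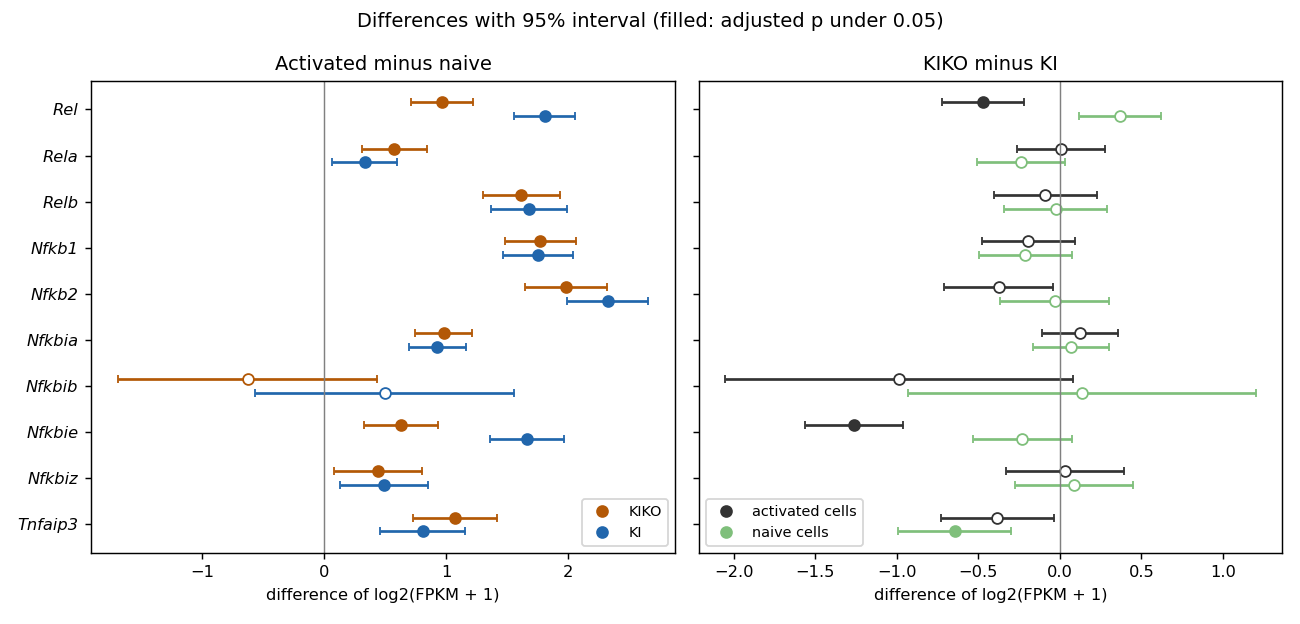
Differences of log2(FPKM + 1) on the x axis with 95% intervals (horizontal lines) for each gene (y axis), activated minus naive on the left and KIKO minus KI on the right. Filled points passed the limma test at an adjusted p under 0.05, open points did not. The KIKO and KI intervals for activation lie apart for Rel and Nfkbie, and Nfkbie has the lowest KIKO minus KI point in activated cells, -1.26.

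Rel was the subunit whose response differed between genotypes. Its locus carries its name, and 2 of 6 exon features there match the GENCODE gene models of Rel in length and spacing. Rel encodes c-Rel, the subunit most tied to lymphocyte proliferation and to cytokine genes such as Il2. In activated cells it stood at 11.0, 12.4 and 9.97 FPKM in KIKO libraries, against 16.6, 15.5 and 15.2 in KI libraries. In naive cells it stood at 5.21, 4.87 and 5.49 FPKM in KIKO libraries, against 4.29, 3.21 and 3.95 in KI libraries. So every activated KIKO library lay below every activated KI library, while every naive KIKO library lay above every naive KI library. In activated cells the log2 difference, KIKO minus KI, was -0.47 ± 0.12 (limma adjusted p = 0.00621), and in naive cells it was 0.37 ± 0.12 and missed the threshold (limma adjusted p = 0.0633). Rel rose by 0.97 ± 0.12 on stimulation of KIKO cells (log2, limma adjusted p = 5.01e-05) and by 1.81 ± 0.12 in KI cells (limma adjusted p = 1.55e-07). The difference between these responses was -0.84 ± 0.16 (limma adjusted p = 0.00446), and it passed the threshold under all 24 alternative settings run, from -0.95 to -0.58. Rel was the only 1 of the 8 members to differ in response, where 20.6% of all loci did.

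No other subunit passed the test between genotypes. In activated cells 1 of 8 members was called, Rel, where 40.0% of all loci were called (20.7% higher and 19.3% lower), so the members' share lay below the background. Their median KIKO minus KI difference was -0.28 (log2), against 0.04 for all loci. Nfkb2 in the activated libraries listed above overlapped between genotypes by 1 KIKO library, with a log2 difference of -0.37 ± 0.15 that missed the threshold (limma adjusted p = 0.0711). Without KIKO activated 2, the activated library with the highest myeloid marker sum, Nfkb2 was called at -0.50 (limma adjusted p = 0.0273) and Nfkb1 at -0.36 (limma adjusted p = 0.0171), where Nfkb1 with all libraries was -0.19 ± 0.13 (limma adjusted p = 0.272). Nfkb2 was also called under median-ratio scaling (-0.43, limma adjusted p = 0.0352). For Rela and Relb the 95% intervals of the activated KIKO minus KI difference ran from -0.26 to 0.28 and from -0.40 to 0.23 on the log2 scale. In naive cells the KIKO libraries lay below the KI libraries without overlap for 3 of the 8 members, Tnfaip3, Rela and Nfkb1, where 13.5% of all loci did so. Of these, Rela (-0.24 ± 0.12, limma adjusted p = 0.245) and Nfkb1 (-0.21 ± 0.13, limma adjusted p = 0.339) missed the threshold.

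The inhibitor Nfkbie showed the largest genotype difference among the 10 genes. Nfkbie encodes IkB-epsilon, an inhibitor that binds Rel and Rela dimers and is itself made in response to NF-kB. No locus carries its name, and its exons lie in the locus that the files name Slc35b2, on chromosome 17 (GRCm39, 45866629 to 45874521, plus strand). Exon lengths and spacings of 3 of 8 exon features there match the GENCODE gene models of Nfkbie, a match made after the values were seen, and the locus was split at this point. It stood at 11.2, 10.8 and 11.4 FPKM in KIKO activated libraries, against 29.0, 29.6 and 25.9 in KI activated libraries. In naive cells it stood at 6.41, 8.21 and 6.05 FPKM in KIKO libraries, against 6.45, 9.09 and 9.34 in KI libraries. The activated KIKO libraries were tightly grouped far below the KI libraries, whereas the naive groups overlapped. The KIKO minus KI log2 difference was -1.26 ± 0.14 in activated cells (limma adjusted p = 2.97e-05) and -0.23 ± 0.14 in naive cells (limma adjusted p = 0.316).

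Stimulation raised Nfkbie by 0.63 ± 0.14 in KIKO cells (log2, limma adjusted p = 0.00273) and by 1.66 ± 0.14 in KI cells (limma adjusted p = 1.03e-06). The responses differed by -1.03 ± 0.20 (limma adjusted p = 0.00407), a difference that passed the threshold under all 23 settings run. The rest of the locus, which matches Slc35b2, a sulphate donor transporter of the Golgi, was lower in activated KIKO cells too. That rest averaged 5.79 FPKM in KIKO activated and 11.8 in KI activated libraries, a log2 difference of -0.92 ± 0.15 (limma adjusted p = 0.000537), and its response differed by -1.17 ± 0.22 (limma adjusted p = 0.00341), so the smaller response was not particular to the Nfkbie exons. The neighbouring genes lie on the same strand and were assembled as 1 locus, so reads running past the end of Nfkbie could be counted with its neighbour, and the share of either in the other's value was not tested.

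The classical inhibitor Nfkbia was the highest of the 10 genes in every group and did not separate the genotypes. It encodes IkB-alpha, whose degradation frees NF-kB within minutes and whose gene is then refilled by NF-kB. It stood at 176, 171 and 148 FPKM in KIKO activated and 166, 151 and 136 in KI activated libraries, and these overlapped. In naive cells it stood at 73.6, 91.3 and 84.0 FPKM in KIKO and 77.4, 76.4 and 82.7 in KI libraries, which overlapped too. Its log2 rise was 0.98 ± 0.11 in KIKO (limma adjusted p = 2.74e-05) and 0.93 ± 0.11 in KI cells (limma adjusted p = 1.22e-05), and the 95% interval of the difference between them ran from -0.27 to 0.38.

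Tnfaip3 was the only 1 of the 8 members called between genotypes in naive cells, where 10.4% of all loci were called and 3.90% were lower. It encodes A20, an enzyme that edits ubiquitin chains and shuts the NF-kB signal off upstream of the inhibitors. It stood at 8.35, 6.61 and 9.42 FPKM in KIKO naive libraries, against 14.0, 13.6 and 12.0 in KI naive libraries. No KIKO naive library reached the lowest KI naive library, and the log2 difference was -0.65 ± 0.16 (limma adjusted p = 0.0246). The call is weak, since it was lost without KIKO naive 1 (-0.67, adjusted p = 0.0503), KIKO naive 2 (-0.52, adjusted p = 0.0776), KI naive 1 (-0.61, adjusted p = 0.0835) or KI naive 2 (-0.62, adjusted p = 0.0741), and under rescaling to an equal sum (-0.56, adjusted p = 0.0529) or from transcript starts only (-0.59, adjusted p = 0.0558, all by limma). In activated cells Tnfaip3 stood at 19.5, 18.1 and 16.6 FPKM in KIKO and 26.7, 27.6 and 18.2 in KI libraries. Only KI activated 3 lay within the KIKO range, and the log2 difference of -0.38 ± 0.16 missed the threshold (limma adjusted p = 0.0735) but reached -0.56 without KI activated 3 (limma adjusted p = 0.00982). Stimulation raised it by 1.07 ± 0.16 in KIKO (limma adjusted p = 0.00021) and by 0.81 ± 0.16 in KI cells (limma adjusted p = 0.000786).

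Nfkbiz and Nfkbib gave less. Nfkbiz encodes IkB-zeta, a nuclear family member that acts as a cofactor at some NF-kB targets. Its exons lie in the locus named Nxpe3 (chromosome 16, GRCm39, 55631738 to 55659262, minus strand), again matched by exon lengths and spacings after the values were seen. The match covers 5 of 13 exon features there. Nfkbiz averaged 11.8 ± 1.98 FPKM in KIKO activated and 8.42 ± 0.980 in KIKO naive cells (SD, n = 3 each), a log2 difference of 0.44 ± 0.17 (limma adjusted p = 0.0452). In KI cells its means were 11.6 ± 2.04 FPKM when activated and 7.92 ± 1.39 when naive (SD, n = 3 each), a log2 difference of 0.49 ± 0.17 (limma adjusted p = 0.0209). Leaving out KIKO activated 1, KIKO activated 3, KIKO naive 1 or KIKO naive 2 ended the call in KIKO cells (adjusted p = 0.164, 0.0972, 0.0758 and 0.133 by limma in that order). Leaving out KI activated 1, KI activated 2 or KI naive 3 ended it in KI cells (adjusted p = 0.0826, 0.0652 and 0.0927 by limma in that order). Its 95% interval for KIKO minus KI in activated cells ran from -0.33 to 0.39 (log2). Nfkbib, which encodes IkB-beta, was represented by 1 transcript end of 758 bp, listed in 5 of 12 libraries at no more than 1.86 FPKM. It was listed in 0 of 3 KIKO activated and 2 of 3 KI activated libraries, and no fold is given for it. The rest of the gene was not sought under other locus names.

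The sequences before the starts of 5 members are shown because they hold a match to the motif that NF-kB is known to bind. The kB consensus motif, a 10-base motif, was searched on both strands in the 250 bases before each RefSeq start (GRCm38.p6). Entries were found for 7 of the 10 members, and Relb, Nfkb1 and Nfkbiz had none. Nfkb2 has 3 listed starts and Tnfaip3 has 2, and each was searched. A match stood before at least 1 start in 5 of these 7, and in 8.23% of 27025 genes and 7.25% of 32851 promoters searched in the same way. In the lines below the first listed promoter is printed 5′ to 3′ on the gene's own strand up to the base before the start, and capitals mark the matches, some of which overlap each other or are read on both strands.
Rel promoter, chr11:23770970-23771219, minus strand: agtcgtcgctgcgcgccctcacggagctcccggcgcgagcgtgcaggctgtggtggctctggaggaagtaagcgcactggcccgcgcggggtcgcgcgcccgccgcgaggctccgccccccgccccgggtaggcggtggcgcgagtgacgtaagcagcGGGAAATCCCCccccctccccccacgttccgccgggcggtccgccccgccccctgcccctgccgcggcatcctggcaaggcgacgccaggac
Nfkb2 promoter, chr19:46304487-46304736, plus strand: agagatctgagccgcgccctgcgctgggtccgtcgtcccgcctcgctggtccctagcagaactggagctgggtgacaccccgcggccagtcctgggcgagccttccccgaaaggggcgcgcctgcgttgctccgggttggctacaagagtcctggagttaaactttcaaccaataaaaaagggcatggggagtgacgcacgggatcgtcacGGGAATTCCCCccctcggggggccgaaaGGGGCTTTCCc
Nfkbia promoter, chr12:55492648-55492897, minus strand: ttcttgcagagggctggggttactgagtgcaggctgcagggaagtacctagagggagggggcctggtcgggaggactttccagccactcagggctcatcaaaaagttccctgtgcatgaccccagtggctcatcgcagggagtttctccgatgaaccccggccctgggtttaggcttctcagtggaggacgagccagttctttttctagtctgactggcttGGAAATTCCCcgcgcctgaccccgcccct
Nfkbie promoter, chr17:45555450-45555699, plus strand: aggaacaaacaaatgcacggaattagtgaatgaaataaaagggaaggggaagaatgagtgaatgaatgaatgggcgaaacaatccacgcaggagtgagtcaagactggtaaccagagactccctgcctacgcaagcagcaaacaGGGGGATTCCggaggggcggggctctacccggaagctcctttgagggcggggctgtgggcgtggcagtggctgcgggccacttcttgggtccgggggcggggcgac
Tnfaip3 promoter, chr10:19015411-19015660, minus strand: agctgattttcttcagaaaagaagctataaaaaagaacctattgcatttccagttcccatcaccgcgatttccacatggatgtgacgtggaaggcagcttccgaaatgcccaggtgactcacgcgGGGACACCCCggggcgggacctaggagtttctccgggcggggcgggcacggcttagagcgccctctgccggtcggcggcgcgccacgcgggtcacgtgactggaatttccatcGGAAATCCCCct
Rel has overlapping matches that begin 92 and 91 bases before the start, and Nfkb2 has overlapping ones at 39 and 38 bases and another at 11 bases. Nfkbia has a match at 29 bases, Nfkbie at 106 bases, and Tnfaip3 at 125 and 12 bases. Of the promoters not printed, those of the other Nfkb2 starts have a match at 236 and at 225 bases, and that of the second Tnfaip3 start has none. The promoters of Rela and Nfkbib held no match in this window. Rel and Nfkbie, which rose less in KIKO than in KI cells, and Nfkb2 and Nfkbia, whose rise was not separated by genotype, all hold a match. A match is a string of letters and does not show that a factor binds there.

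Some members are listed as more than 1 transcript form, and these were compared as shares of the gene's summed FPKM at that event. Of 26 forms of the members, 8 averaged a share of at least 5% in some group and were compared between genotypes in 16 tests. A form also needed a mean total of at least 5 FPKM in some group and could not be the larger form in every group. With 3 against 3 libraries an exact permutation test cannot give p below 0.1, and no form passed after Benjamini-Hochberg adjustment over the 16 tests. In activated cells 2 of the 8 forms did not overlap between genotypes, where 16.9% of 7340 forms of all loci chosen in the same way did not, so forms of this kind are common and the 2 are given as a description. An Nfkb1 form that leaves out a 178-bp exon made up 0.00, 0.00 and 6.84% of the summed FPKM in KIKO activated libraries, against 11.9, 20.7 and 16.5% in KI activated libraries. Two-sided exact permutation gave p = 0.1, and 0.8 after adjustment. In naive libraries the share was 0.24, 5.22 and 0.18% in KIKO and 0.24, 3.63 and 12.9% in KI, and these overlapped.

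The exon is exon 24 of 25 in a full-length GENCODE transcript (GRCm38), near the end of the coding sequence, in the C-terminal part of p105 that mature p50 lacks. It is printed to show the stretch that the form lacks, on the gene's own minus strand.
Nfkb1 exon 24, chr3:135589327-135589504, minus strand: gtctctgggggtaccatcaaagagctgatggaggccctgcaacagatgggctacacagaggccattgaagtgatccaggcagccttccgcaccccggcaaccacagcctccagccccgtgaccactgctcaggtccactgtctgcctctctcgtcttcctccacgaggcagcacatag
Its 178 bases are not a multiple of 3, so a transcript without it ends in another reading frame. A shorter GENCODE transcript, with 12 coding exons against 23 in the full-length one, also lacks it, and its last exon holds 105 coding bases in place of 158. In the deposited coordinates (GRCm39) the exon is at chromosome 3, 135295088 to 135295265.

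Nfkb2 had a second transcript start that took 5.37, 16.8 and 19.6% of its summed starts in KIKO activated libraries, against 26.0, 30.0 and 34.9% in KI activated libraries (two-sided exact permutation p = 0.1, adjusted 0.8). In naive libraries the share was 51.0, 1.83 and 7.59% in KIKO and 22.4, 9.63 and 17.4% in KI, so the naive KIKO libraries spread more widely than the activated groups differed. Its first exon is 329 bp long and begins at chromosome 19, 46294135 (GRCm39), downstream of the first start. A few forms were seen in KIKO naive 2 alone or nearly so. That library had an Nfkb2 form without a 126-bp exon at 79.5% and a Relb form without a 329-bp exon at 100%, the second on a total of 1.23 FPKM, whereas in each of the other libraries these shares were at most 2.72%. KIKO naive 2 is the library with the fewest loci, and the part of that in these shares was not tested.

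Genes around the family were followed in 4 lists: other regulators, activators of the canonical pathway, components of the alternative pathway, and target genes. Some genes belong to more than 1 list. Of 17 other regulators tested, 5 were higher and 1 was lower in activated KIKO than KI cells, where 20.7% of all loci were higher and 19.3% lower. The median log2 difference was 0.30 against 0.04 for all loci. Without KIKO activated 2 and KIKO naive 2 the counts were 5 and 3, where 43.1% of all loci were called. Tax1bp1, a ubiquitin-binding partner of A20 and an autophagy receptor, averaged 164 ± 9.00 FPKM in KIKO activated and 60.2 ± 5.51 in KI activated cells (SD, n = 3 each), a log2 difference of 1.43 ± 0.09 (limma adjusted p = 5.5e-07). N4bp1, an inhibitor of NF-kB signalling, averaged 10.5 ± 1.08 FPKM in KIKO activated and 4.63 ± 0.794 in KI activated cells (SD, n = 3 each), a log2 difference of 1.04 ± 0.14 (limma adjusted p = 0.000118). Cyld, a deubiquitinase that restrains the pathway, and Itch, a ubiquitin ligase that works with A20, were each 0.51 higher on the log2 scale (limma adjusted p = 0.00733 and 0.00143 in that order). Otulin, which cuts linear ubiquitin chains, went the other way at -0.51 ± 0.09 (limma adjusted p = 0.000625).

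On stimulation, 10 of the 17 rose and 1 fell in KIKO cells, and 8 rose and 4 fell in KI cells. Of all loci 25.1% rose and 22.2% fell in KIKO cells, and 32.2% rose and 29.5% fell in KI cells. Without KIKO activated 2 and KIKO naive 2, the counts in KIKO cells were 5 and 2, and 37.1% of all loci were called there. Nfkbid, another nuclear IkB, rose by 2.14 ± 0.21 in KIKO (log2, limma adjusted p = 1.48e-05) and by 2.60 ± 0.21 in KI cells (limma adjusted p = 9.69e-07). Bcl3, a nuclear partner of p50 and p52, rose by 2.08 ± 0.22 in KIKO (limma adjusted p = 2.34e-05) and by 1.90 ± 0.22 in KI cells (limma adjusted p = 1.35e-05). Tax1bp1 stood at 162, 174 and 156 FPKM in KIKO activated against 138, 126 and 136 in KIKO naive libraries, and at 66.0, 59.3 and 55.1 in KI activated against 118, 127 and 124 in KI naive libraries. It therefore lay higher after stimulation in KIKO and lower in KI libraries, with a difference of the responses of 1.32 ± 0.12 (limma adjusted p = 0.000138).

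The canonical activators carry the signal from the receptor to the IkB kinase. Of 21 tested, 3 were higher and 2 were lower in activated KIKO cells, against 20.7% and 19.3% of all loci, with a median of 0.13 (log2). Without KIKO activated 2 and KIKO naive 2, 2 were higher and 3 were lower, where 43.1% of all loci were called. Prkcq, the kinase that relays the receptor signal in T cells, stood at 46.4, 29.8 and 57.1 FPKM in KIKO activated and 86.3, 75.5 and 76.2 in KI activated libraries, a log2 difference of -0.87 ± 0.17 (limma adjusted p = 0.00177). When naive, Prkcq stood at 98.0, 101 and 101 FPKM in KIKO and 123, 122 and 125 in KI libraries. The difference between its responses, -0.57 ± 0.24, missed the threshold (limma adjusted p = 0.123). Malt1, the scaffold and protease that follows Prkcq, averaged 23.4 ± 3.10 FPKM in KIKO activated and 38.0 ± 4.48 in KI activated cells (SD, n = 3 each), a log2 difference of -0.68 ± 0.15 (limma adjusted p = 0.00387). In naive cells the 1 gene called was Ikbkg, which encodes the regulatory subunit of the IkB kinase. It averaged 16.3 ± 0.562 FPKM in KIKO naive and 12.7 ± 0.226 in KI naive cells (SD, n = 3 each), and 13.2 ± 0.913 in KIKO activated and 9.72 ± 0.330 in KI activated cells (SD, n = 3 each). The log2 difference was 0.34 ± 0.08 in naive (limma adjusted p = 0.0251) and 0.40 ± 0.08 in activated cells (limma adjusted p = 0.00243), and the naive call was lost without KIKO naive 1, KIKO naive 3, or any 1 of the KI naive libraries (limma adjusted p of 0.0622 to 0.0746), and under median-ratio scaling and quantile normalization (limma adjusted p = 0.0608 and 0.0564 in that order). On stimulation 8 rose and 6 fell in KIKO cells (25.1% and 22.2% of all loci), and 7 rose and 8 fell in KI cells (32.2% and 29.5%). Without KIKO activated 2 and KIKO naive 2 the KIKO counts were 4 and 3, where 37.1% of all loci were called. Fbxw11, part of the ligase that tags IkB, rose by 0.88 ± 0.13 in KIKO (limma adjusted p = 0.00021) and 0.84 ± 0.13 in KI cells (limma adjusted p = 0.000127).

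In the alternative pathway, 6 of 13 genes were lower and 1 was higher in activated KIKO cells, where 19.3% of all loci were lower and 20.7% higher, with a median of -0.14 (log2). Without KIKO activated 2 and KIKO naive 2, 6 were lower and 2 were higher, where 43.1% of all loci were called. The 5 genes with the smallest p were all lower, and all are receptors or a ligand of the TNF family. Of them, Tnfrsf9, Tnfrsf4 and Cd40lg are also in the target list. Tnfrsf9 (4-1BB) averaged 17.4 ± 2.54 FPKM in KIKO activated and 45.5 ± 4.72 in KI activated cells (SD, n = 3 each), a log2 difference of -1.34 ± 0.14 (limma adjusted p = 2.49e-05). Cd40lg, which engages CD40 on antigen-presenting cells, was lower by a log2 difference of -1.20 ± 0.18 (limma adjusted p = 0.000244), and Cd27 by -0.89 ± 0.17 (limma adjusted p = 0.00164). Tnfrsf4 (OX40) stood at 195, 146 and 129 FPKM in KIKO activated and 370, 438 and 394 in KI activated libraries, a log2 difference of -1.37 ± 0.17 (limma adjusted p = 6e-05), but -0.16 from transcript starts alone (limma adjusted p = 0.404). Exon lengths and spacings matched GENCODE for 3 of 12 exon features at Tnfrsf4 and 1 of 3 at Cd40lg. Tnfrsf18 (GITR), which is also among the regulatory T cell markers, was -0.60 ± 0.14 in activated (limma adjusted p = 0.00478) and -0.97 ± 0.14 in naive cells (limma adjusted p = 0.00164). In naive cells 2 of the 13 were lower, Tnfrsf18 and Cd27, where 3.90% of all loci were lower, and Cd27 (-0.67 ± 0.17, limma adjusted p = 0.0302) lost the call without KIKO naive 1 (-0.56, adjusted p = 0.0937), KIKO naive 2 (-0.73, adjusted p = 0.0521) or KI naive 3 (-0.46, adjusted p = 0.0903).

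Target genes of NF-kB mostly rose on stimulation in each genotype, and 12 of the 29 tested stood lower in activated KIKO than KI cells. On stimulation 19 of 29 rose and 4 fell in KIKO cells, with a median log2 difference of 1.75, and 19 rose and 3 fell in KI cells, with a median of 2.05. Of all loci 25.1% rose and 22.2% fell in KIKO cells, and 32.2% rose and 29.5% fell in KI cells. In activated cells 12 were lower and 5 were higher in KIKO, against 19.3% and 20.7% of all loci, with a median of -0.22. Ccnd2, a cyclin of early cell cycle entry, stood at 36.5, 39.4 and 34.4 FPKM in KIKO activated and 100, 106 and 114 in KI activated libraries, a log2 difference of -1.51 ± 0.11 (limma adjusted p = 2.38e-06). Lta, the cytokine lymphotoxin alpha, stood at 4.43, 4.06 and 4.47 FPKM in KIKO activated and 19.2, 24.5 and 18.8 in KI activated libraries, a log2 difference of -2.03 ± 0.19 (limma adjusted p = 1.04e-05). At the locus named Lta, 1 of 4 exon features matched GENCODE Lta in length and spacing. Whether a neighbouring gene shares that locus was not tested. Myc averaged 35.4 ± 8.34 FPKM in KIKO activated and 101 ± 16.6 in KI activated cells (SD, n = 3 each), a log2 difference of -1.50 ± 0.17 (limma adjusted p = 3.58e-05). Irf1, a transcription factor that interferon also induces, went the other way, with 55.7, 76.4 and 83.5 FPKM in KIKO activated and 15.9, 13.3 and 22.8 in KI activated libraries, a log2 difference of 2.00 ± 0.19 (limma adjusted p = 1.1e-05). Irf4, which scales with receptor signal strength, rose by 6.98 ± 0.20 in KIKO and 7.50 ± 0.20 in KI cells (log2, limma adjusted p = 1.35e-09 and 5.94e-10 in that order). In naive cells 3 targets were higher and 2 were lower in KIKO than KI, where 10.4% of all loci were called and 3.90% were lower. Without KIKO naive 2 and KIKO activated 2, 1 was higher and 1 was lower, where 8.87% of all loci were called. Of the 5 called with all libraries, Lta (0.81) and Cd69 (0.75), an early activation marker, were higher, and Icam1 (-0.64), an adhesion molecule, and Ccnd2 (-0.43) were lower on the log2 scale (limma adjusted p of 0.0198 to 0.0343). Ier3, an early response gene, was the third higher one and was listed in the KIKO naive libraries at 0.606, 1.70 and 0.725 FPKM and at 0 in all KI naive libraries, so no fold is given. Otulin was the 1 other regulator called in naive cells (0.33 ± 0.09, limma adjusted p = 0.0321). These naive calls are weak. Leaving out KI naive 1 or KI naive 2 ended the call of each of Lta, Cd69, Icam1, Ccnd2 and Otulin, as did leaving out KI naive 3 for Icam1, Ccnd2 and Otulin. The call was also lost without KIKO naive 1 for Ccnd2 and Otulin, without KIKO naive 2 for Lta, Ccnd2 and Otulin, and without KIKO naive 3 for Cd69 (limma adjusted p of 0.0520 to 0.119 over all these fits). The targets as a list are also regulated by other pathways, and no share of these changes was assigned to NF-kB.

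**Figure D3:**
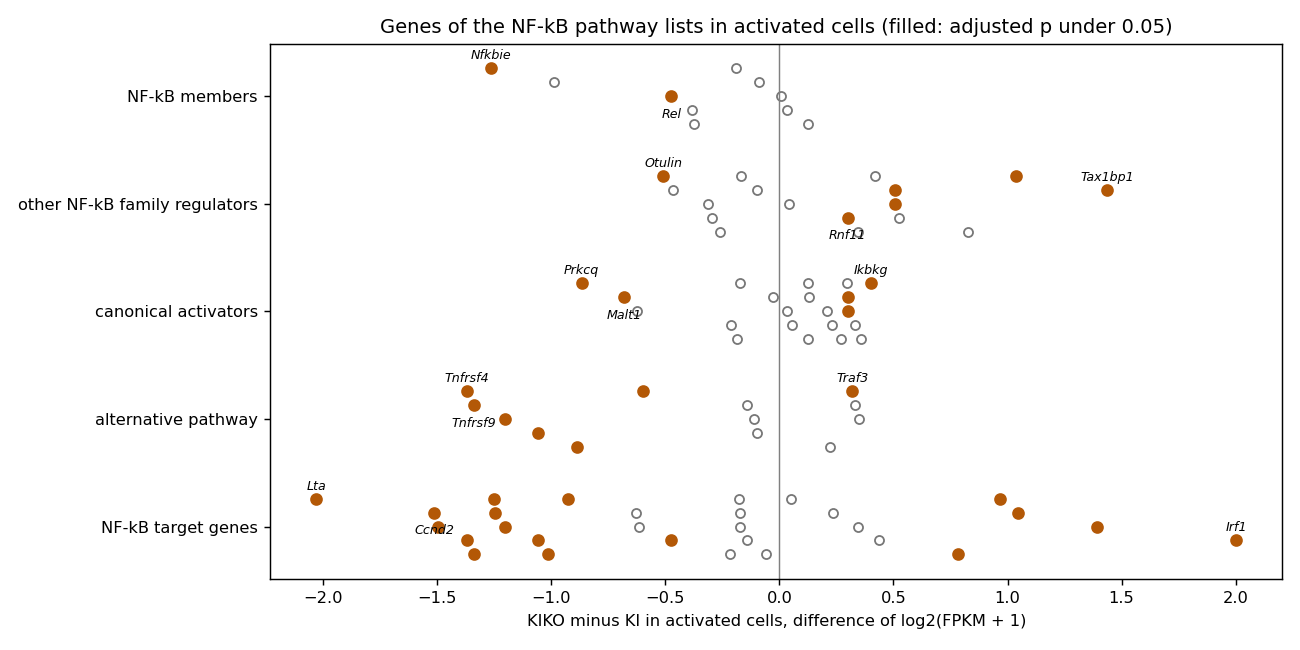
KIKO minus KI difference of log2(FPKM + 1) in activated cells (x axis) for each tested gene (point) of the members and of the 4 other lists (rows; points are spread vertically for legibility). Filled points passed the limma test at an adjusted p under 0.05. Called genes of the target list reach from -2.03 (Lta) to 2.00 (Irf1), while the called members are Rel and Nfkbie.

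Genes whose log2 levels followed the members most closely over the 12 libraries were sought among 7413 loci with a symbol. All 12 points share the split between naive and activated groups, and Pearson's r is given as a description. Rel was most like Rmdn3, Tsr1 and Sf3b3 (r of 0.995, 0.994 and 0.991). Nfkb2 was most like Ndufa4, Hspa5 and Lag3 (r of 0.997, 0.993 and 0.992), and Relb like Sptlc1, Ndufa4 and Irf4 (r of 0.989, 0.988 and 0.988). Nfkbia was most like Pitpnm2 (r of 0.989), and Nfkbie like Pqbp1 (r of 0.979). Tnfaip3 was most like Stat6, Nfatc1 and Traf4 (r of 0.972, 0.968 and 0.965).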

How the data were processed

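Poly(A) RNA from 15 ng of total RNA per library was made into stranded libraries, per the labels' protocols. Reads were handled with FastQC 0.11.9, cutadapt 2.9 and HISAT2 2.2.0, per the submitters' processing notes, which name GRCm39 and mm10. File coordinates are GRCm39. The sources used here do not name the program behind the values. The authors deposited FPKM per transcript event (start, end, skipped exon, retained intron), 1 file per library, with no depth.

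A locus level is the largest of its summed starts, summed ends and largest single event, after dropping repeated events, and an unlisted locus is 0. A symbol on several loci went to the highest on average. Loci with at least 1 FPKM in at least 3 of 12 libraries were tested as log2(FPKM + 1), pseudocount 1, with limma 3.58.1 in R 4.3.3 (4 group means, intensity trend, two-sided, Benjamini-Hochberg, called under 0.05). The code was tested on simulated data. Nfkbie and Nfkbiz were tested in a separate fit of the same kind, with their loci split. A member was counted if called under its own symbol. Outside the members, named genes are among the 5 with the smallest p per list and comparison. Sequences are from RefSeq (GRCm38.p6) and GENCODE M21, matched by symbol or exon lengths. Members and lists were chosen with earlier results of these data known. Alternatives were pseudocounts, filters, scalings, starts only, no trend, replicate blocks, the compared groups only, each library left out and, chosen after seeing the data, split loci and KIKO naive 2 with KIKO activated 2 left out. Comparisons share groups: each group enters a genotype comparison and an activation comparison.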

Additional observations from a re-analysis of the deposited data

Results flagged for a closer look

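The activation response differed between genotypes, by the interaction term of the limma model, for 2 of the 10 NF-kB genes. In the surrounding lists it was called for 5 of 17 other regulators, 2 of 21 canonical activators, 4 of 13 genes of the alternative pathway and 13 of 29 targets, where 20.6% of all loci were called. Those among the 5 with the smallest p per list are given here, as the KIKO response minus the KI response on the log2 scale. Rel had -0.84 (adjusted p = 0.00446) and Nfkbie had -1.03 (adjusted p = 0.00407). Each was also called lower in activated KIKO than KI cells, where 19.3% of all loci were lower. Among other regulators, Tax1bp1 had 1.32 (adjusted p = 0.000138), N4bp1 0.93 (adjusted p = 0.00654), Cyld 0.87 (adjusted p = 0.00627) and Itch 0.55 (adjusted p = 0.0165), while Otulin had -0.84 (adjusted p = 0.00104). Among canonical activators, Malt1 had -0.83 (adjusted p = 0.0194) and Rbck1, part of the ligase that makes linear ubiquitin chains, had 0.40 (adjusted p = 0.0473). In the alternative pathway, Tnfrsf4 had -0.97 (adjusted p = 0.0135), Cd40lg -0.77 (adjusted p = 0.0470) and Map3k14, the kinase NIK, 0.63 (adjusted p = 0.0316). Tnfrsf9 was called too, and no value is given because it was listed at 0 in every KIKO naive library. Among targets, Lta had -2.84 (adjusted p = 0.000161), Bcl2l1 -1.46 (adjusted p = 0.00267) and Ccnd2 -1.08 (adjusted p = 0.00118), while Irf1 had 2.19 (adjusted p = 0.000481). These values moved beside lower CD4 T cell and regulatory T cell marker sums in KIKO libraries, whose part in them was not tested. The regulatory T cell markers include genes that rose on stimulation. Exon lengths and spacings matched GENCODE for 1 of 4 exon features at Lta and 1 of 3 at Cd40lg. At each of Tnfrsf4 and Map3k14 they matched for 3 of 12. Whether neighbouring genes share these loci was not tested. Rbck1, Tnfrsf4, Cd40lg and Map3k14 lost the call under some settings, among them single libraries left out for Rbck1, Cd40lg and Map3k14, and Tnfrsf4 changed sign from transcript starts only (0.24, adjusted p = 0.435). The other 12 genes kept their direction and their side of the threshold under each setting run.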

How the results depend on the processing

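Of 80 called differences followed gene by gene, 62 kept their direction and side of the threshold under each setting run and 18 lost the call under some setting. Of these, 1 also changed sign, the difference of response of Tnfrsf4 (-0.97), which was 0.24 from transcript starts only. In naive cells the member call (1) became 0 from transcript starts only, 0 without KIKO naive 2 and KIKO activated 2, and 0 to 1 with single libraries left out. Under rescaling to an equal sum Tnfaip3 was lost and Rel was called instead. In activated cells the count (1) became 3 under median-ratio scaling, 2 under quantile normalization, 2 with split loci counted, 3 without those 2 libraries, and 1 to 3 with single libraries left out, where Nfkb2, Nfkb1, Tnfaip3, Nfkbib or Nfkbia joined Rel. Without those 2 libraries, 8.87% of all loci were called in naive and 43.1% in activated cells. For the interaction the member count became 2 with split loci counted. The cause was not tested.

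Uncalled differences that changed sign were all near 0. Nfkb2 in naive cells (-0.03) was 0.060 under rescaling to an equal sum and -0.17 to 0.050 with single libraries left out. Nfkbia in naive cells (0.07) was -0.0036 under median-ratio scaling, -0.0028 without those 2 libraries and -0.0028 to 0.15 with single libraries left out. In the interaction, Nfkb1 (0.02) was -0.0099 from starts only, -0.16 without those 2 libraries and -0.15 to 0.17 with single libraries left out, and Nfkbia (0.05) was -0.028 to 0.13 with single libraries left out.

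Same-numbered deviations correlated at -0.033 to 0.121 within a genotype or a state, not above 0.1 in every pair. Differently numbered libraries were not compared, so this does not settle whether replicate numbers pair the libraries. With the replicate block the activated count was 2, and Rela in KI activation lost its call (adjusted p = 0.053 by limma). Rescaling to an equal sum moved the median of all loci to 0.13 in the naive and 0.15 in the activated genotype comparison and to -0.13 for KI activation. The share of called loci that were higher in KIKO was 62.3% in naive cells, and 44.2, 49.4 and 81.0% under median-ratio, quantile and equal-sum scaling. In activated cells it was 51.9%, and 45.3, 49.1 and 64.9% under median-ratio, quantile and equal-sum scaling. FPKM carry no depth, and p-values rest on 3 libraries per group.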
